A study of Arabidopsis thaliana with 6 samples.

Results

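The genes described here lie around ATHB1 near the start of chromosome 3 of Arabidopsis thaliana. They are the rows of the gene count files with locus identifiers from AT3G01010 to AT3G02010, leaving out ATHB1 itself (AT3G01470), the model AT3G01472 that overlaps it, AT3G01220 and AT3G01510. This gave 123 of the 33602 genes in the files. In the TAIR10.1 annotation they span 339 kb, from base 1609 to base 340442, with 65 genes to the left of ATHB1 and 58 to the right.

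RNA was sequenced from whole seedlings (root, hypocotyl and cotyledon) of ecotype Columbia, aged 4 days, in 3 wild-type libraries and 3 libraries of the mutant athb1-1. Both genotypes had been stratified for 3 days and grown in short days of 8 h light and 16 h darkness at 22 to 24 degrees C, and were harvested 1 h before the night ended. The labels call the 3 libraries of a genotype biological triplicates and name no other allele, and they state neither the type of lesion in athb1-1 nor how the line was crossed. An effect of losing ATHB1 and any other difference that the athb1-1 line carries therefore cannot be told apart in these libraries.

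ATHB1 is a transcription factor of the homeodomain-leucine zipper class I family, known in Arabidopsis for promoting hypocotyl growth in short days. Homeodomain-leucine zipper factors, across their classes, bind palindromes of the form CAATNATTG as pairs of proteins. The searches below took any base at N, so a match is not specific to class I. Genes close to a mutated locus are inherited with it: when a mutant line is compared with wild-type, the surrounding chromosome segment comes from the mutant parent, together with any sequence difference that the segment holds. The genes in the interval have no common function. They include enzymes and transporters of the chloroplast, kinases, chromatin proteins, phloem proteins and genes used mainly in pollen and seeds.

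The depth was 11036314 to 11974342 gene counts in the wild-type libraries and 12841376 to 13153615 in those of athb1-1, and 22362 to 22644 genes per library had at least 1 count. Cotyledon markers (RBCS1A, CAB2, CAB3) summed to 25512 to 34479 CPM (counts per 1000000 of the scaled library) and root markers (CASP1, MYB36, SCR) to 102 to 123 CPM, so both organs were represented in every library. The mutated gene checked the labels: ATHB1, measured from its exon bins, read 378, 452 and 386 CPM in wild-type and 8.75, 8.00 and 8.97 CPM in athb1-1, a fall to 2.12% of the wild-type mean (log2 fold change −5.56, SE 0.12, adjusted p = 7.36e-11 over 18764 loci, edgeR's quasi-likelihood test, Benjamini-Hochberg). Wild-type replicate 2 was low in long transcripts and high in seed transcripts, and both points are given with values beside the genes they touch.

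Among the genes around ATHB1, AT3G01345 alone passed the test between genotypes. Its transcript was abundant in wild-type seedlings and nearly absent from athb1-1. The annotation describes AT3G01345 as an uncharacterized protein, with a note of similarity to glycoside hydrolase family 35, enzymes that remove galactose residues. It is a single-exon gene on the plus strand, at chr3:129138-130749, and it lies 51.6 kb before ATHB1.

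The wild-type libraries held 2225, 2130 and 2143 counts of AT3G01345, and the athb1-1 libraries 16, 11 and 7. Scaled to library size these were 207, 194 and 175 CPM against 1.16, 0.859 and 0.541 CPM. The lowest wild-type library thus lay far above the highest athb1-1 library. The means were 192 ± 15.7 CPM and 0.854 ± 0.310 CPM (SD, n = 3), which is 225-fold lower in athb1-1, with 0.445% of the wild-type level left. The log2 fold change was −7.79 (SE 0.18, adjusted p = 1.53e-10 over 18626 genes, edgeR's quasi-likelihood test, Benjamini-Hochberg), and no other tested gene of the genome had a lower one. Per kb of exon, AT3G01345 was the third highest of the genes around ATHB1 in wild-type, at 119 CPM per kb, and ranked 766 among 18517 tested genes with a length. In athb1-1 it stood at 0.530 CPM per kb, which ranked 17985.

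AT3G01345 has a single exon bin, whose counts are identical to its gene counts, so the exon files give no second measurement of it. Scaled to the exon bin totals, the bin kept 0.463% of its wild-type level, and the locus fell with an adjusted p of 7.36e-11 (edgeR, exon bins summed per locus). In that fit it was the 1 gene called of the 80 tested, against 0.064% of 18764 loci. In the authors' deposited table its log2 fold change, given as wild-type over athb1-1, was 7.79. RNA from whole seedlings cannot separate fewer cells with the transcript from less transcript per cell.

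AT3G01345 shares its upstream region with the gene on its left. AT3G01340, a WD40 repeat gene for the SEC13 subunit of the COPII vesicle coat, runs the other way on the minus strand from 128994 to 127303, and the start sites are 143 bp apart. The stretch between them is shown because it holds the annotated promoter space of the gene that fell and of the neighbour that did not pass the test. It is the plus strand of the reference (NCBI RefSeq, TAIR10.1, chr3:128995-129137), written from the start of AT3G01340 to the start of AT3G01345, with each CAAT or its complement ATTG in capitals. These 4 letters are the arm of the palindrome.
AT3G01340 to AT3G01345: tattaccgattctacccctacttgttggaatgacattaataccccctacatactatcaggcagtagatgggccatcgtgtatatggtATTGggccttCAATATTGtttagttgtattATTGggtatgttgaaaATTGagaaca
The stretch has 5 such arms, 2 of which adjoin as CAATATTG, and no full CAATNATTG. A CAAT on either strand is common: it occurs in 79.4% of the 143 bp windows upstream of the 27437 protein-coding genes. The full palindrome, whose arms are counted in the CAAT search as well, occurs in 0.590% of the same windows.

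In windows of 250 bp upstream, CAATNATTG was found on either strand in 252 of 27437 protein-coding genes (0.918%) and in 1 of 118 around ATHB1 (0.847%), so the shares are alike. That gene is AT3G01190, a class III peroxidase, an enzyme of the cell wall. Its site is shown because it is the only full palindrome in these windows (TAIR10.1, chr3:68701-68730, minus strand, palindrome in capitals). The middle base of this site is G, and the shares above were not divided by middle base. Neither the site nor the shares can therefore be read as those of class I factors.
AT3G01190: tttctacaaaCAATGATTGgtcttaagaac
AT3G01190 read 99.0, 122 and 97.9 CPM in wild-type and 111, 121 and 106 CPM in athb1-1. The groups overlap, and the gene did not pass the test (log2 fold change 0.08, SE 0.11). A match to a motif describes the letters in a window and does not show that a factor binds there.

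None of the genes next to AT3G01345 passed the test. AT3G01340, across the shared upstream stretch, read 50.7, 56.4 and 47.4 CPM in wild-type and 50.4, 47.2 and 51.0 CPM in athb1-1, and its log2 fold change was −0.06 (SE 0.10, adjusted p = 0.977, edgeR with Benjamini-Hochberg adjustment). Its 2 exon bins with at least 30 wild-type counts stood at 89.1 and 99.6% of wild-type. AT3G01350, a transporter gene of the major facilitator superfamily that begins 4.17 kb after AT3G01345, read 2.60, 3.09 and 3.03 CPM against 3.27, 2.81 and 4.41 CPM. These groups overlap too (log2 fold change 0.26, SE 0.22). Farther left, DEL3, an atypical E2F factor of the cell cycle, was near the limit of counting, with 6, 9 and 12 counts in wild-type and 15, 13 and 18 in athb1-1. Its groups do not overlap (log2 fold change 0.55, SE 0.34, adjusted p = 0.947, edgeR with Benjamini-Hochberg adjustment). All 13 genes between AT3G01345 and ATHB1 were tested. Their log2 fold changes ran from −0.24 to 0.43 and their smallest adjusted p was 0.939.

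**Figure D1:**
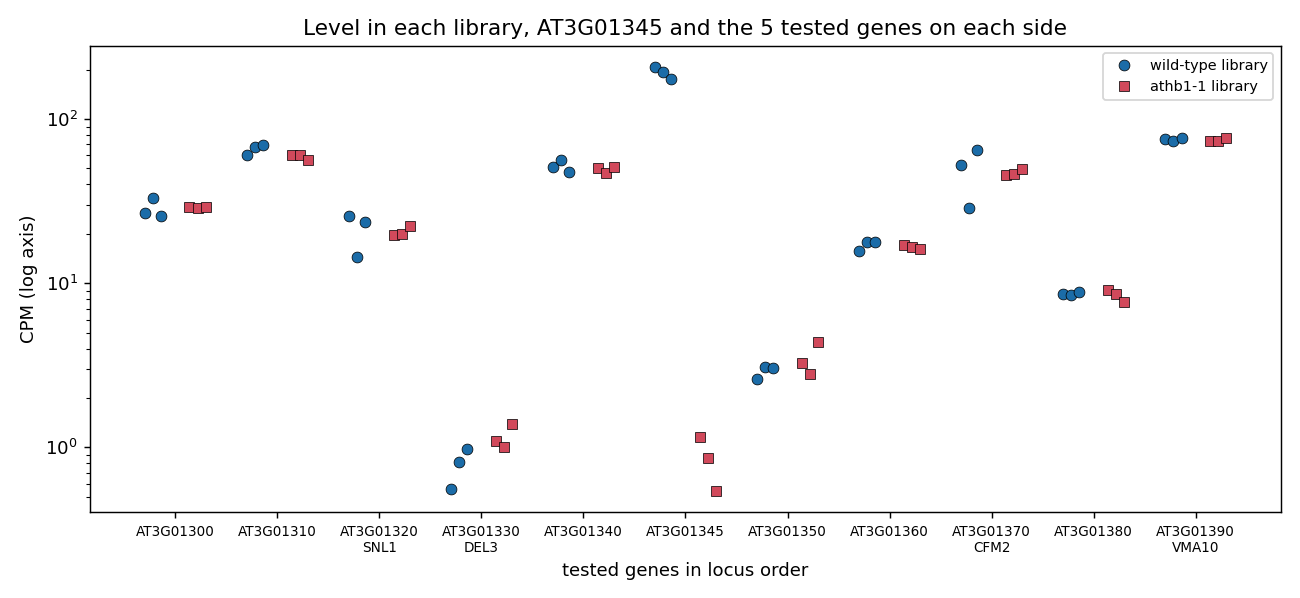
CPM on a log axis in each of the 6 libraries (circles wild-type, squares athb1-1) for AT3G01345 and the 5 tested genes on each side, in locus order. AT3G01345 is at 175 to 207 CPM in wild-type and 0.541 to 1.16 CPM in athb1-1, while AT3G01340 beside it is at 47.2 to 56.4 CPM in all 6 libraries.

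AT3G01345 has relatives elsewhere in the genome. A blastn search of the gene against TAIR10.1 gave 32 matches outside the locus, 6 of them at least 300 bp long. The longest aligned 1466 bp at 76.7% identity (chr2:2753423-2754854), and no long match reached more than 81.3%. Among the 6, the genes that the files list at the chromosome 2 and chromosome 4 matches had 0 counts in every library, and the chromosome 3 match has no gene in the count files. AT5G35760, at a chromosome 5 match, had 1, 0 and 2 counts in wild-type and 7, 2 and 3 in athb1-1. AT5G28919 and AT5G28920, at the other two on chromosome 5, together held 643, 767 and 734 counts in wild-type and 810, 822 and 750 in athb1-1. AT3G01345 itself held 6498 counts over the wild-type libraries and 34 over those of athb1-1. Whether reads were assigned between these relatives was not tested.

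Of the 123 genes, 110 had at least 1 count and 13 were at 0 in all 6 libraries. A further 31 had counts but did not pass the filter on low counts, the highest of them with 64 counts over the 6 libraries. That left 79 tested genes. AT3G01345 was the 1 gene called lower and 0 were called higher (adjusted p under 0.05), which is 1.27% of the 79 tested, against 0.0537% of all 18626 genes in either direction (0.0322% lower, 0.0215% higher). The calls in all came to 10 genes. At an unadjusted p under 0.05, edgeR gave 5 of the 79 (6.33%) against 5.24% of all genes. DESeq2, at an adjusted p under 0.05, called the same single gene, against 0.11% of 20009 genes. The authors' deposited table held 99 of the 123, with 1 at an adjusted p under 0.05, against 0.212% of its 22676 genes.

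The other 78 tested genes ranged from −0.73 to 0.58 on the log2 scale, and their lowest adjusted p was 0.939. Within 0.5 of 0 lay 75 of them, or 96.2%, against 96.5% of all tested genes, and 66 lay within 0.25. Their median standard error was 0.12. Of all 79, 37 had positive and 42 negative log2 fold changes. The median was −0.02 against 0.01 over all genes, and the median size, leaving out the sign, was 0.12 against 0.11. These medians include AT3G01345. By the share within 0.5 of 0, the segment without AT3G01345 varied about as much between the genotypes as all tested genes. The share of genes whose groups did not overlap is given below.

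Both sides of ATHB1 had small median changes, with fewer positive values on the right. To the left, without AT3G01345, 39 genes were tested, with a median log2 fold change of 0.01 and 22 positive values. To the right, 39 genes were tested, with a median of −0.05 and 15 positive values. Neither median was tested against the other.

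**Figure D2:**
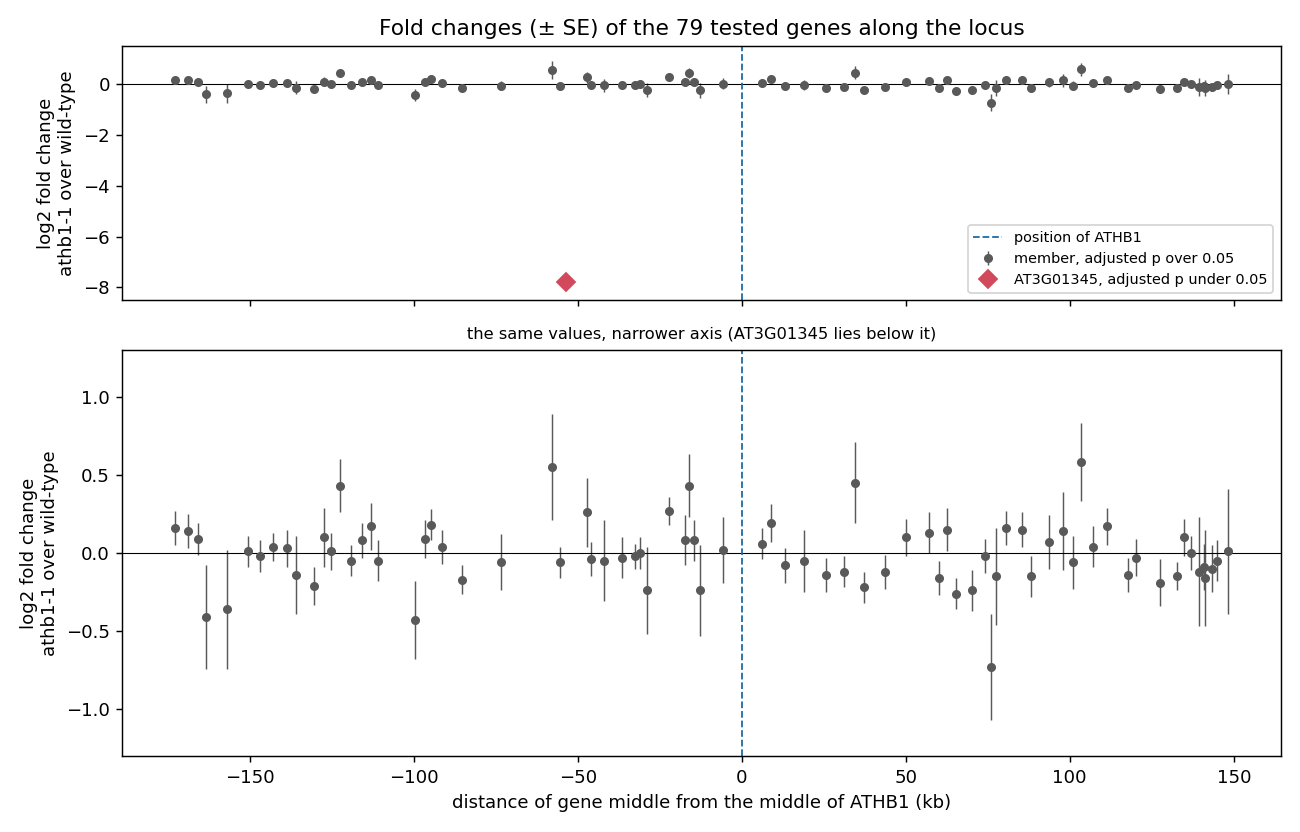
Log2 fold change (athb1-1 over wild-type, bars ± SE) of the 79 tested genes by distance in kb from the middle of ATHB1, on a full axis above and a narrow axis below. AT3G01345 sits at −7.79, and the other 78 genes lie between −0.73 and 0.58 on both sides of the dashed line that marks ATHB1.

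Nearest to ATHB1 on the left is MBD9, a methyl-CpG-binding domain protein of chromatin on the opposite strand, whose 3′ end overlaps that of ATHB1 by 59 bp. It read 25.8, 16.8 and 30.5 CPM in wild-type and 24.7, 19.8 and 29.5 CPM in athb1-1, with overlapping groups (log2 fold change 0.02, SE 0.21). Its 9 exon bins with at least 30 wild-type counts stood at 62.9 to 128% of wild-type, with a median of 92.0%. The 4 bins of the locus that merges ATHB1 and AT3G01472 stood at 0.934 to 4.44%, far below every bin of MBD9.

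On the right, CYP38, a cyclophilin of the thylakoid lumen needed to assemble photosystem II, read 187, 168 and 208 CPM in wild-type and 195, 194 and 198 CPM in athb1-1. The athb1-1 values lie inside the wild-type range (log2 fold change 0.06, SE 0.10). The 7 bins of CYP38 with at least 30 wild-type counts stood at 97.0 to 123%, median 105%. The kinase gene AT3G01490 beyond it read 73.0, 54.9 and 66.1 CPM against 66.3, 73.8 and 81.5 CPM (log2 fold change 0.19, SE 0.12). Its 3′ end overlaps that of CYP38 by 62 bp on the opposite strand. Whether the counting used strand is unknown, so reads from such overlaps may have been assigned to either gene or to none.

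**Figure D3:**
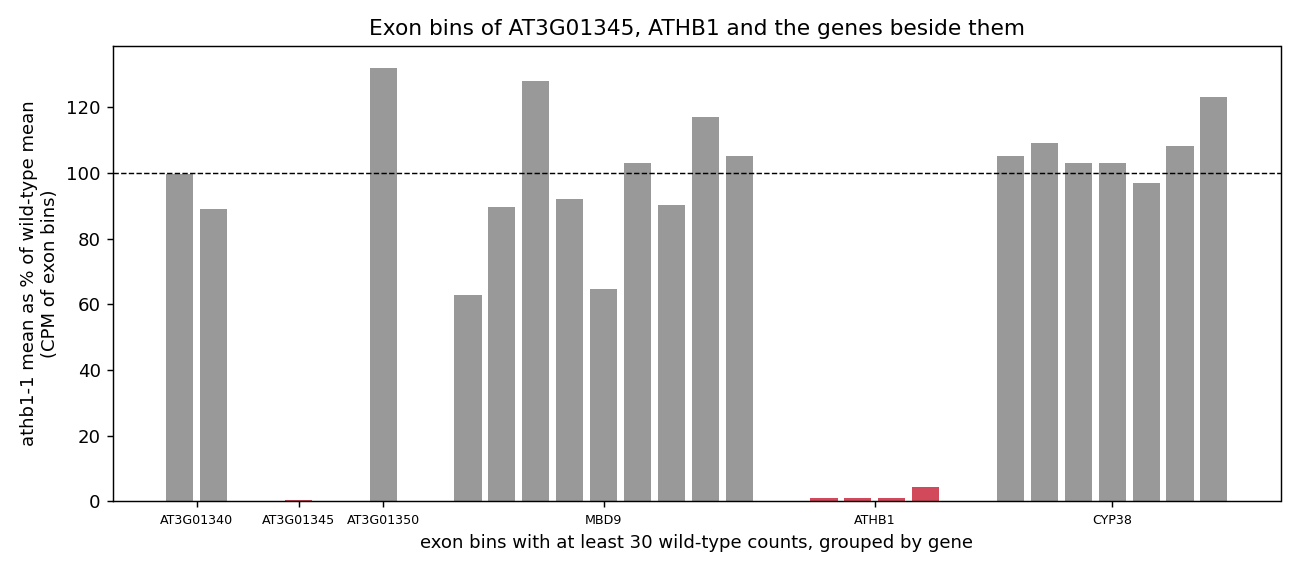
The athb1-1 mean as a percentage of the wild-type mean for each exon bin with at least 30 wild-type counts, grouped by gene, with the dashed line at 100%. The bins of AT3G01345 (0.463%) and ATHB1 (0.934 to 4.44%) are near 0, while those of AT3G01340, AT3G01350, MBD9 and CYP38 lie between 62.9 and 132%.

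The remaining close neighbours of ATHB1 did not pass the test either. On the left these are PnsL3, a lumen subunit of the chloroplast NADH dehydrogenase-like complex (10.5, 9.46 and 12.4 CPM against 11.2, 11.3 and 11.7), AT3G01430 (log2 fold change 0.08, SE 0.16) and AT3G01450 (−0.24, SE 0.29). AT3G01435 read 3.72, 3.00 and 4.01 CPM in wild-type and 5.95, 4.14 and 4.33 CPM in athb1-1. Its groups do not overlap, but the highest wild-type and lowest athb1-1 values are close (log2 fold change 0.43, SE 0.20, adjusted p = 0.939, edgeR with Benjamini-Hochberg adjustment). On the right, AT3G01513 was at −0.05 (SE 0.20), and AT3G01516 had too few counts to be tested, with 2, 5 and 4 in wild-type against 12, 14 and 5.

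Levels along the segment differed widely from gene to gene. The median of the tested genes in wild-type was 7.96 CPM per kb of exon, against 7.07 over all tested genes, and 35 of them reached 10. CA1, the carbonic anhydrase of the chloroplast stroma, was highest at 1581 CPM per kb in wild-type and 1497 in athb1-1, and ranked 47 in the genome. CA1 read 5618, 5089 and 4788 CPM in wild-type and 4390, 5133 and 5147 CPM in athb1-1, with overlapping groups (log2 fold change −0.08, SE 0.11). It overlaps AT3G01510 by 343 bp on the same strand. CA1 alone held 0.460 to 0.548% of each library's counts, and the 123 genes together 0.830 to 0.913%.

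DOX1 followed CA1 with 334 CPM per kb, and AT3G01345 came next. Below them came DRH1, a DEAD box RNA helicase, and AT3G01520, a universal stress protein-like hydrolase, both at 102 CPM per kb, and CYP38 at 101. AT3G01690, an alpha/beta-hydrolase, HIR2, a membrane protein of the hypersensitive response family, SOX and the peroxidase AT3G01190 stood at 89.1, 85.1, 80.5 and 78.4 CPM per kb. DRH1, AT3G01520 and CYP38, neighbours in this order, do not differ beyond their spread, which before division by length was 259 ± 26.0 CPM for DRH1 and 188 ± 19.9 CPM for CYP38 (SD, n = 3). At the other end is a run of nearly silent genes to the left of AT3G01345. There, 8 genes that the annotation assigns to the ECA1 gametogenesis-related family lie close together, with 5 at 0 and 3 counts in all over the 6 libraries.

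**Figure D4:**
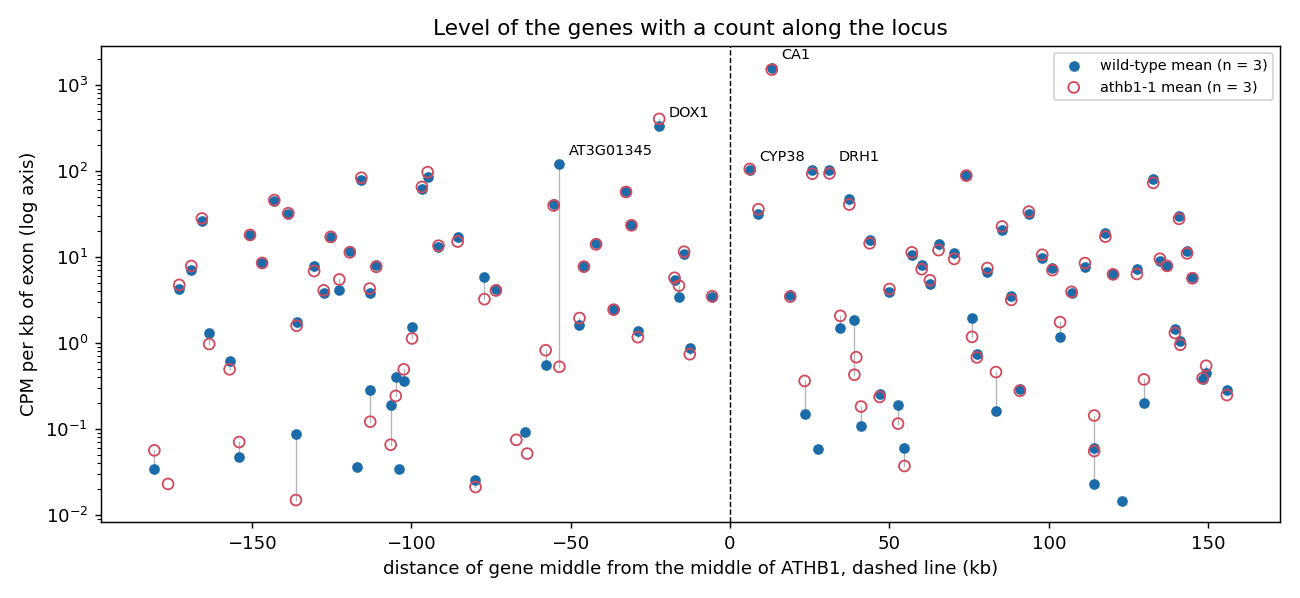
Mean CPM per kb of exon on a log axis (filled circles wild-type, open circles athb1-1, n = 3 each, grey line joining them) by distance in kb from the middle of ATHB1. A genotype with a mean of 0 has no point, CA1 is highest at 1581 and 1497, and the line is longest at AT3G01345, from 119 to 0.530.

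By role, none of the groups other than the single gene AT3G01345 held a gene that passed the test. In chloroplast and photosynthesis, 6 of 6 genes were tested, 3 with positive and 3 with negative values, and the median was 0.01. These include CA1, CYP38 and PnsL3, the starch synthase SS2, and CFM2, a splicing factor of chloroplast introns. PPT2, which carries phosphoenolpyruvate across the plastid envelope, read 2.97, 1.36 and 2.78 CPM in wild-type and 3.56, 3.04 and 3.17 CPM in athb1-1. The athb1-1 libraries lie above the others, by little beside the spread of wild-type (log2 fold change 0.45, SE 0.26). Without wild-type replicate 2 the log2 fold change was 0.17.

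Among transcription and chromatin genes, 6 of 9 were tested, 2 positive and 4 negative, with a median of −0.08. WRKY58, a regulator of defence genes, was at −0.36 (SE 0.38), AT3G01890, a SWIB domain protein of chromatin remodelling complexes, at −0.19 (SE 0.15) and DEL3 at 0.55 (SE 0.34). MYB106, MYB57 and NAC044 had too few counts. MYB106, known in Arabidopsis for controlling trichome branching, had 1, 0 and 4 counts in wild-type and 1, 0 and 0 in athb1-1. It lies over the noncoding RNA gene AT3G01142, which held 23, 40 and 31 counts against 29, 38 and 32. In the list of RNA-binding genes and helicases, 2 of 2 were tested, with a median of −0.17: PTB1, a polypyrimidine tract-binding splicing regulator, at −0.21 (SE 0.12) and DRH1 at −0.12 (SE 0.10).

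Of the kinases and signalling genes 5 of 6 were tested, 3 positive and 2 negative, with a median of 0.01. KIN10, the catalytic subunit of the energy-sensing kinase SnRK1, was at 0.01 (SE 0.10) and RGLG1, a RING ubiquitin ligase, at −0.16 (SE 0.11). AT3G01310, a kinase that makes inositol pyrophosphates, read 60.3, 68.0 and 69.6 CPM in wild-type and 60.0, 60.1 and 56.2 CPM in athb1-1. All athb1-1 libraries lay below, but the closest values of the groups are 60.3 and 60.1 (log2 fold change −0.17, SE 0.09). In transport and trafficking, 4 of 5 were tested, 2 positive and 2 negative, with a median of 0.03, among them VDAC1, the anion channel of the mitochondrial outer membrane (0.09, SE 0.12), VMA10, a subunit of the vacuolar proton pump (−0.02, SE 0.08), and AT3G01340. VDAC1 overlaps HIR2 by 387 bp on the opposite strand.

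In the cell wall list 6 of 6 were tested, 4 positive and 2 negative, with a median of 0.11. The positive values include AT3G01720, a galactosyltransferase that acts on extensins (0.16, SE 0.11), and GAUT13, a galacturonosyltransferase of pectin (0.16, SE 0.11). The pectate lyase gene AT3G01270 read 2.14, 3.28 and 3.36 CPM in wild-type and 2.61, 2.11 and 1.78 CPM in athb1-1, with overlapping groups (log2 fold change −0.43, SE 0.25). AGP11, an arabinogalactan protein of pollen, had the lowest value of the 78, and read 1.86, 1.27 and 1.31 CPM in wild-type against 0.653, 1.25 and 0.773 CPM. Its groups do not overlap, by a gap of 1.27 to 1.25 CPM, on 14 to 20 counts against 9 to 16 (log2 fold change −0.73, SE 0.34, unadjusted p = 0.0523, edgeR). The other pollen markers, VGD1 and AGP6, both above 0 in every library, summed to 2.04, 3.55 and 3.03 CPM in wild-type and 1.16, 1.56 and 2.09 CPM in athb1-1. AGP6 is a close paralog of AGP11, and the part of these transcripts in the AGP11 value was not tested.

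In metabolism and stress, 3 of 5 were tested, 2 positive and 1 negative, with a median of 0.04. DOX1, the alpha-dioxygenase that oxidises fatty acids in stressed tissue, read 813, 785 and 742 CPM in wild-type and 1015, 915 and 884 CPM in athb1-1. The athb1-1 libraries all lie above the wild-type libraries, and the means were 780 ± 35.6 and 938 ± 68.5 CPM (SD, n = 3). DOX1 had the smallest unadjusted p of the 78, at 0.0154, but an adjusted p of 0.939 over all genes (log2 fold change 0.27, SE 0.09, edgeR with Benjamini-Hochberg adjustment). Of the others, MTO1, which commits carbon to methionine, was at 0.04 (SE 0.09), and SOX, which detoxifies sulfite, read 139, 133 and 125 CPM against 113, 116 and 127 CPM (−0.15, SE 0.09). CYP94B2 and ROXY1 had too few counts.

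The phloem genes lie next to each other. SEOa and SEOR1 code for the filament proteins of sieve elements, the conducting cells of phloem. SEOa read 41.4, 39.8 and 38.2 CPM in wild-type and 29.1, 35.2 and 35.5 CPM in athb1-1, with no overlap. SEOR1 read 32.8, 30.3 and 26.0 CPM against 21.0, 26.3 and 28.2 CPM, with overlap. The log2 fold changes were −0.26 (SE 0.10, unadjusted p = 0.0278) and −0.24 (SE 0.13, unadjusted p = 0.0894), and the adjusted p values in edgeR's quasi-likelihood test (Benjamini-Hochberg) were 0.939 and 0.947. The lowest library for both was athb1-1 replicate 1, and without it the log2 fold changes were −0.17 and −0.12.

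The third gene of that group, the oleosin AT3G01570, codes for a coat protein of seed oil bodies and was not tested. It had 10, 39 and 1 counts in wild-type and 8, 2 and 4 in athb1-1, so most of its counts came from wild-type replicate 2. The seed markers CRU3, CRA1 and OLEO1 were also highest in that library, at a summed 22.8 CPM against 0.696 to 4.65 CPM in the others.

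In 13 of the 79 tested genes the genotypes did not overlap, 8 with athb1-1 above and 5 below, which is 16.5% against a background of 11.3% over all genes (5.86% above and 5.49% below). Above were GAUT13, DEL3, DOX1, AT3G01435, PPT2, AT3G01660, AT3G01800 and AT3G01820. Below were AT3G01345, PTB1, AT3G01310, SEOa and AGP11. The count was 12 of 79 with upper-quartile scaling. With no filter on low counts it was 15 of the 110 genes with a count. The share over all genes was not computed under these settings. It was 9 with the length trend removed (background 11.8%) and 8 of 80 with exon bins summed per locus (background 11.5%). AT3G01800, a ribosome recycling factor gene, had the highest log2 fold change, 0.58 (SE 0.25, unadjusted p = 0.0354, edgeR), with 1.67, 1.18 and 1.88 CPM in wild-type and 2.47, 2.34 and 2.32 CPM in athb1-1. AT3G01175, of unknown function, had an unadjusted p of 0.0287 although its groups overlap (9.76, 6.0 and 7.29 CPM against 11.2, 9.29 and 10.4, edgeR log2 fold change 0.43, SE 0.17).

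Of the remaining genes with the smallest p in either direction, the positive ones were HIR2 (0.18, SE 0.10), AT3G01740, a mitochondrial ribosomal protein (0.15, SE 0.11), and those above. The negative ones included AT3G01560 (log2 fold change −0.22, SE 0.10). All of these had an adjusted p of 0.939 or more in edgeR.

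Exon usage, the share of a gene's reads in each exon bin, was compared in the 58 of these genes with enough counts in several bins. With edgeR's diffSpliceDGE, 0 of 58 were called, against 0.00781% of 12808 loci. At an unadjusted p under 0.05 there were 0 of the 58, against 79 of the 12808 loci. So few loci passed over the genome that the 0 says little about these genes. The smallest unadjusted p was 0.0995, at CA1, whose adjusted p was 1 (edgeR, Simes p per locus).

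Wild-type replicate 2 was low in long transcripts, and this touches the long genes of the segment. In 6 of the 10 tested genes with a transcript of at least 3000 bp it was the lowest of the 6 libraries, against 13 of the 69 shorter ones. Over all tested genes, replicate 2 was the lowest library in 56% of the long and 22% of the shorter ones. The median log2 ratio of replicate 2 to the mean of replicates 1 and 3 was −0.21 in the long genes and 0.00 in the shorter, and −0.31 and 0.04 over all tested genes. CFM2 had 563, 315 and 791 counts in wild-type and 624, 594 and 642 in athb1-1, and TPLATE, a subunit of an endocytic adaptor, read 45.8, 22.9 and 49.2 CPM against 42.1, 41.4 and 46.3 CPM. In both genes replicate 2 is far below the other 5 libraries, and the wild-type spread is wide.

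Without wild-type replicate 2, 81 of the genes were tested and AT3G01345 was again the only gene called, against 165 of 18892 genes (0.873%) over the genome. The next was CFM2, with an adjusted p of 0.0983 (edgeR with Benjamini-Hochberg adjustment). The same single gene was called when the trend with transcript length was also removed. What made this library differ was not tested.

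**Figure D5:**
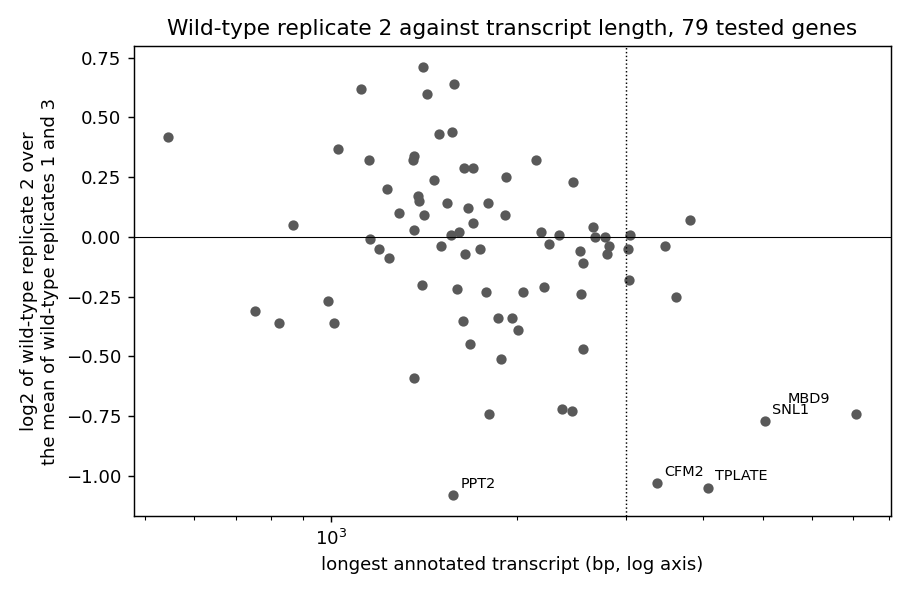
Log2 ratio of wild-type replicate 2 to the mean of wild-type replicates 1 and 3 for the 79 tested genes, by longest annotated transcript in bp (log axis), with the dotted line at 3000 bp. The median is −0.21 for the 10 genes to the right of the line and 0.00 for the 69 to the left. On the right, TPLATE (−1.05), CFM2 (−1.03), SNL1 (−0.77) and MBD9 (−0.74) are the lowest. PPT2, a shorter gene on the left, is the lowest of the 79 at −1.08.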

How the data were processed

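The authors deposited read counts per gene and per exon bin as whole numbers. The submitters' processing notes name TopHat2 2.0.8, Bowtie2 2.1.0 and the genome build TAIR10. How the counting was done, and whether it used strand, is not stated in these sources. The authors also deposited a table of log2 fold changes (wild-type over athb1-1) with p-values, and its 6 per-library columns were not used. The files give no positions. These and the sequences are from NCBI RefSeq TAIR10.1, which held 32835 of 33602 identifiers and all 123 genes described. Rows naming no gene (9.85 to 12.1% of the exon file totals) were left out.

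Counts of all 6 libraries were tested over the whole table with edgeR 4.0.16 in R 4.3.3 (TMM scaling, default filterByExpr, robust quasi-likelihood F-test, genotype as the only term, two-sided, Benjamini-Hochberg adjusted p under 0.05 called). Each SE was obtained from the F statistic of the log2 fold change. CPM values carry the TMM factors. Exon bins were summed per locus and tested alike, since the gene count of ATHB1 was 0 in every library. Relatives were searched with blastn 2.17.0. On simulated counts for this comparison, 18466 genes were tested, and the fit recovered 88 of 98 genes with a log2 fold change of 1 and 100 of 100 with 2. Of its 200 calls 12 were false. The simulated libraries had no trend with transcript length, and changes smaller than a log2 fold change of 1 were not simulated. Recovery of smaller changes, or with a library that departs from the others, is therefore not known.

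The genes, the role lists and the naming rule were chosen with earlier results of these data known. Named were AT3G01345, the 5 genes with a count on each side of ATHB1, called genes, the 10 with the smallest p in each direction, the 10 highest in CPM per kb and examples of each role. Other names were chosen after their values were seen. Alternatives were DESeq2 1.42.0, other scalings and filters, each library left out, the replicate number as a block and removal of the trend with length.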

Additional observations from a re-analysis of the deposited data

How the results depend on the processing

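AT3G01345 was called lower under all 15 alternatives, with log2 fold changes of −7.55 to −8.08 when 1 library was left out. In each of them 1 of the genes around ATHB1 was called lower and 0 higher. Exon usage was tested under 10 alternatives, with 0 of these genes called in each. The median log2 fold change ran from −0.03 to 0.02. Genes whose genotypes did not overlap numbered 13 of 79 in the main fit (background 11.3%). They numbered 9 of 79 with the length trend removed (background 11.8%) and 8 of 80 with exon bins summed per locus (background 11.5%). With upper-quartile scaling there were 12 of 79 and with no filter 15 of 110, and no background was computed for either. The cause of these differences was not tested. Over all genes, edgeR called 10, DESeq2 called 22, and edgeR without wild-type replicate 2 called 165.

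Of 539 values for the 36 other named genes, 523 kept their direction and call, 16 in 10 genes changed sign and 0 became calls. Leaving out 1 library moved the value of 30 of the 36 by over 1.5 times or changed its sign. The ranges for the 10 genes that changed sign cover only the fits with 1 library left out. Their log2 fold changes there ranged from −0.57 to 0.10 (AT3G01080), −0.01 to 0.11 (AT3G01120), −0.11 to 0.01 (AT3G01340), −0.02 to 0.18 (AT3G01430) and −0.02 to 0.19 (AT3G01440). The others ranged from −0.20 to 0.21 (AT3G01460), −0.02 to 0.14 (AT3G01480), −0.16 to 0.05 (AT3G01513), −0.13 to 0.07 (AT3G01690) and −0.14 to 0.33 (AT3G01780). With the length trend removed and wild-type replicate 2 left out, chosen after seeing the data, the values with a changed sign were AT3G01440 (−0.09), AT3G01480 (−0.03) and AT3G01780 (−0.02).

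Libraries with the same replicate number did not deviate together in every pair (correlations −0.0548, 0.209 and 0.108), and not every library correlated best with its own number. With the replicate block, AT3G01345 had a log2 fold change of −7.79, 1 gene was called lower and the median was −0.01. DEL3 and AGP11, genes with few counts, had standard errors of 0.34, against a median of 0.12.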
